A study of Mus musculus with 79 samples.

Results

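Imprinted genes are genes that are expressed mainly from the copy inherited from 1 parent. The 46 genes listed here are known imprinted genes of the mouse and their neighbours in imprinted domains, and they were looked up by symbol in the deposited table of gene expression in the hypothalamus. Of them, 42 were found among 25965 rows, and Rian, Mirg, Kcnq1ot1 and Peg13 were not among the rows and are not analysed here. The 42 genes lie in 18 domains. On the lists used here, 23 are given as paternally expressed and 16 as maternally expressed. For Grb10, Gnas and Blcap the lists give an allele that depends on the transcript or the tissue. Which allele of each gene is expressed in the hypothalamus was not measured and may differ from the lists.

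The study asked what the PWWP domain of the DNA methyltransferase DNMT3A does in the mouse, using the D329A point mutation of that domain. RNA-seq of the hypothalamus covered 5 +/+ and 4 Δ/D329A libraries, and ChIP-seq covered 3 +/+ and 3 Δ/D329A libraries for each of H3K4me3, H3K27me3, H3K36me3 and input, all from mice of about 14 weeks. Δ/D329A mice carry on the maternal chromosome a Dnmt3a allele that lost a floxed exon through Zp3-Cre, which is active in the oocyte, and on the paternal chromosome the D329A allele, which was made by targeting C57BL/6 embryonic stem cells. The +/+ mice carry 2 wild-type alleles. No wild-type Dnmt3a allele is left in Δ/D329A, so the effects of Δ and of D329A cannot be told apart in this comparison. Since the strain is inbred, the reads do not tell the parental alleles apart, and a change of imprinting is seen only where it changes the total level.

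In imprinted domains, a differentially methylated region that received its DNA methylation in the egg or the sperm directs which parental copy is used. Methylation in the oocyte depends on DNMT3A, and the zinc finger proteins ZFP57 and ZFP445 help to keep the mark in the embryo. Active starts usually carry H3K4me3, transcribed gene bodies carry H3K36me3, and H3K27me3 is set by Polycomb at repressed genes. In the hypothalamus, imprinted genes are known for roles in growth, feeding and care of the young.

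The RNA-seq libraries held between 3874084 and 9976687 reads on genes, which was between 33.3% and 54.3% of the reads to which the authors scaled the values. Because this share differed between libraries, the deposited RPKM values (reads per kilobase of exon, scaled to sequencing depth) carry a shift that is common to all genes of a library. Hypothalamic marker genes were present in all libraries, with summed levels from 415 to 864 RPKM in +/+ and from 481 to 698 RPKM in Δ/D329A. Thalamic and habenular markers summed to 14.4 to 27.3 RPKM in +/+ and 17.5 to 40.2 RPKM in Δ/D329A. Xist lay between 13.9 and 24.0 RPKM in all 9 RNA-seq libraries, while X-linked tiles of the 6 input libraries had 0.415 to 0.429 times the autosomal mean. The RNA and the chromatin are therefore from animals of different sex, and expression is set beside the marks below as a description only. Among H3K4me3 libraries, Δ/D329A replicate 1 stood apart, with 0.314 RPM (reads in a tile scaled to the mapped reads of the library) in its median tile, where the other 5 had 0.0789 to 0.200 RPM.

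The promoters of a few of these genes are shown because the largest differences below lie at them, or because they carry the hexamer TGCCGC, the core of the motif bound by ZFP57. The sequences are from RefSeq (GRCm38.p6), run from 250 bases before to 50 bases after a start, and have the hexamer, on either strand, in capitals. Plagl1 lies at chr10:13090582-13090881 on the plus strand, and Asb4 has 2 starts, at chr6:5383136-5383435 and chr6:5390160-5390459 on the plus strand. A start of Mest, one of 3 in RefSeq, lies at chr6:30737800-30738099 on the plus strand and that of Snurf at chr7:60005150-60005449 on the minus strand.
Plagl1: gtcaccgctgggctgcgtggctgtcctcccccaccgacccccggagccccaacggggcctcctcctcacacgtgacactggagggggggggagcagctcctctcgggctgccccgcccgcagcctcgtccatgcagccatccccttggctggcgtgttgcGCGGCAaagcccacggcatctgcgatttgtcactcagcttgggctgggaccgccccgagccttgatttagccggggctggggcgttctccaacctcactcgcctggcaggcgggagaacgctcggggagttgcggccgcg
Asb4, first start: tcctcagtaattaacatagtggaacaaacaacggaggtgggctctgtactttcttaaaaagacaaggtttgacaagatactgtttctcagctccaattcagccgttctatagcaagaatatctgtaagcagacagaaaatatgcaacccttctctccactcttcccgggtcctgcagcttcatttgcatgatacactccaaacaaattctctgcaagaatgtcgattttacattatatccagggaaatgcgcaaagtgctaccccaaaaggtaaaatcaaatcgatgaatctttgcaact
Asb4, second start: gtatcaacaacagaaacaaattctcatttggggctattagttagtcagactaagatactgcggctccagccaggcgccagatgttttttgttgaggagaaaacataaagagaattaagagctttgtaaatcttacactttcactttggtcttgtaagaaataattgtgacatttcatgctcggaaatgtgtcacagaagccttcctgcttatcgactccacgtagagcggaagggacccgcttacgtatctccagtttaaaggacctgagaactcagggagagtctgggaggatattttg
Mest: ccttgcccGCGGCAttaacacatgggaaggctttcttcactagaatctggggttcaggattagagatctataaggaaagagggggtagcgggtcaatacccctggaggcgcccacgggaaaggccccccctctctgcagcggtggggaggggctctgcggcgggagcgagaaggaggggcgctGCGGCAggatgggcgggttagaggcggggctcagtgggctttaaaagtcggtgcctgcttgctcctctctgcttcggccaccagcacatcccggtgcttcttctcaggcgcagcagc
Snurf: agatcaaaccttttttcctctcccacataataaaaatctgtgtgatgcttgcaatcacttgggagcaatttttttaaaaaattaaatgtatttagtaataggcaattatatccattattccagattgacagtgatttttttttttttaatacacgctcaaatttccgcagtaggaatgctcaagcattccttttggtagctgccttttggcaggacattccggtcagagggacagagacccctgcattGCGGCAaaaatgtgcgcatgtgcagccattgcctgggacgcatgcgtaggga

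Plagl1 and Snurf each hold the hexamer 1 time and Mest 2 times, while neither start of Asb4 holds it. Over all genes, 33 of the 42 had a promoter among those searched, with 49 promoters in all. The remaining 9 were H19, Cdkn1c, Klf14, Nespas, Peg10, Sgce, Impact, Kcnk9 and Trappc9. Impact lies on chromosome 18, whose promoters were left out of the search for imprinted genes but kept among the promoters of the reference. Whether the reference holds a promoter of Impact is therefore not given here. The hexamer was in 13 of these 49 promoters (26.5%), which belong to 12 genes, against 3813 of 32851 promoters of the reference (11.6%). The motif GCCATNTT of the factor YY1 was in 2 of the 49 (4.08%) against 6.05% of all. The median number of CG dinucleotides was 15 in the promoters of the imprinted genes and 7 in all promoters. Some of the 49 overlap or are shared, as for Snrpn and Snurf, so they are not independent.

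Many of the imprinted genes were among the most abundant transcripts of the hypothalamus. In +/+, 33 of the 42 had a mean above 1 RPKM, 20 were above 10 RPKM, and 21 were in the highest 10% of genes. Nap1l5, a nucleosome assembly protein, was the highest, with 314, 322, 323, 231 and 187 RPKM in +/+ and 227, 169, 254 and 255 RPKM in Δ/D329A. The groups overlapped, and the log2 difference of Δ/D329A minus +/+ was -0.27 (SE 0.27, limma adjusted p = 0.787).

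**Figure D1:**
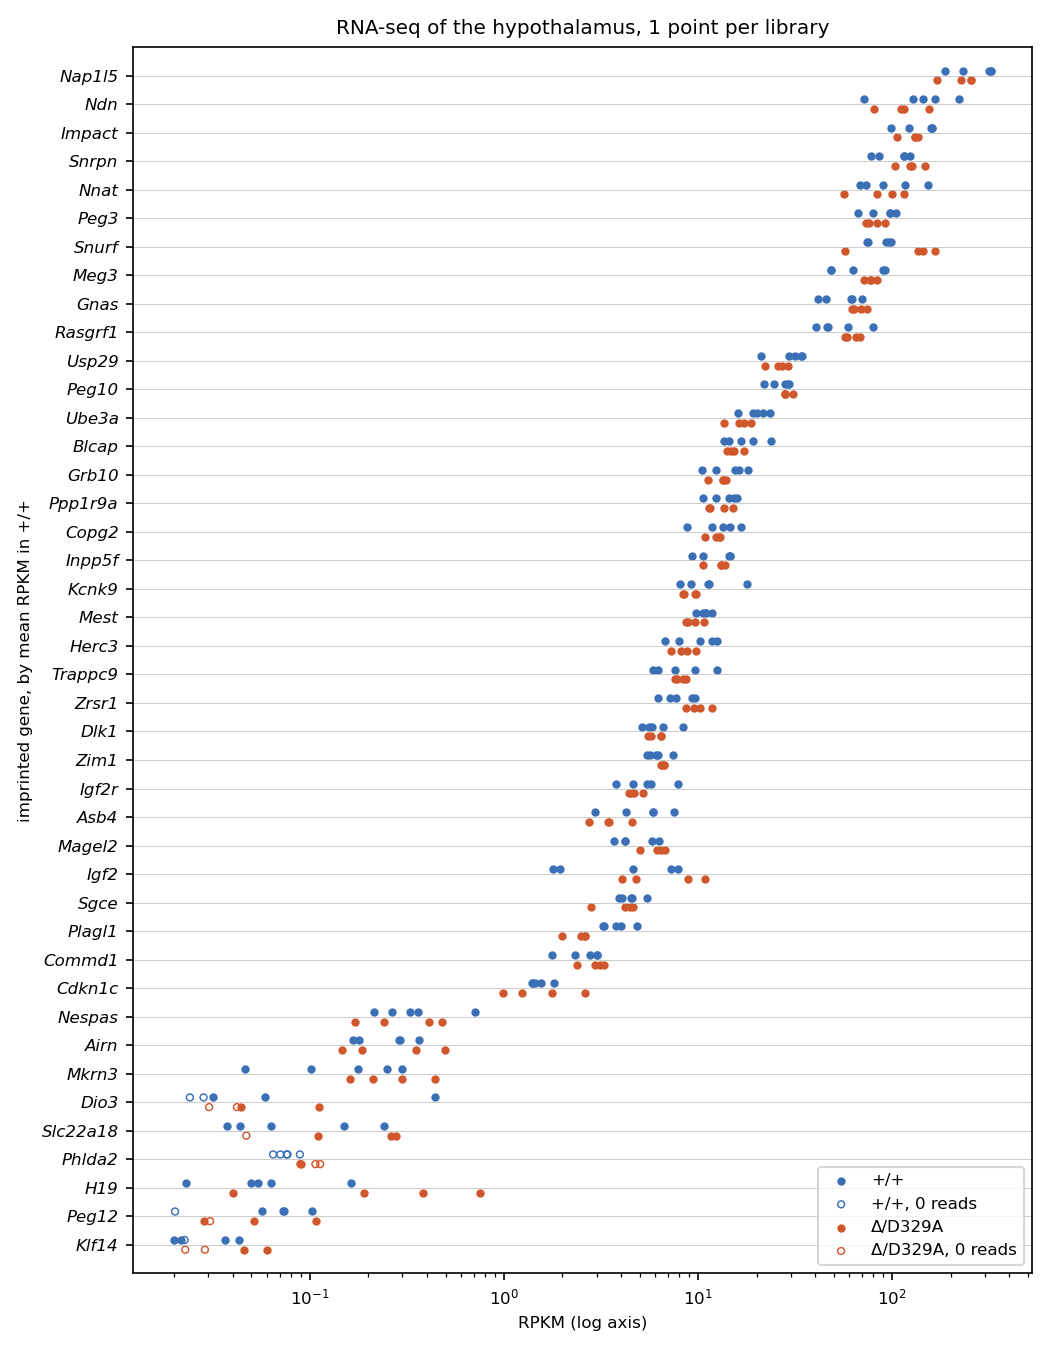
Expression of the 42 imprinted genes, with RPKM on a log axis and 1 point per library (5 +/+, 4 Δ/D329A), ordered by the mean in +/+; open circles are libraries with 0 reads, which the authors' table gives at a floor of 0.9 reads. Points of both genotypes intermix for nearly all genes, and those of Plagl1 are separate, from 3.25 to 4.86 RPKM in +/+ and from 1.996 to 2.63 RPKM in Δ/D329A.

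None of the imprinted genes passed the test of expression between Δ/D329A and +/+. Over all 17839 genes tested, limma called 19 at an adjusted p under 0.01 (0.107%), and 0 of the 38 imprinted genes that passed the filter on low values were among them. At an unadjusted p under 0.05, 2 of the 38 were found, Plagl1 (lower) and H19 (higher), against 7.62% of all genes. Of the 38, 20 had a lower mean in Δ/D329A (52.6% against 40.4% of all) and the median log2 difference was -0.05, against 0.06 over all genes. The paternally expressed genes had a median of -0.04 (21 tested) and the maternally expressed genes of -0.03 (14 tested). The shift between libraries widens the errors: the median SE over all genes was 0.212 as deposited and 0.168 after median centring, which also called 0 of the 38. On simulated reads, the test of the deposited values missed changes of 1 log2 unit, so this absence of calls says little about changes of that size or smaller. Tests of recovered reads, which remove the shift, called 77 of 13890 genes (0.554%, edgeR) and 251 of 16094 (1.56%, DESeq2), and in both the called imprinted gene was Plagl1 and no other.

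Plagl1, a zinc finger transcription factor of an imprinted network for growth, was lower in Δ/D329A. It had 4.01, 3.78, 4.86, 3.25 and 3.27 RPKM in +/+ and 2.61, 1.996, 2.49 and 2.63 RPKM in Δ/D329A. All 4 Δ/D329A libraries lay below all 5 +/+ libraries, which held for 219 of the genes tested (1.23%). The log2 difference was -0.65 (SE 0.16), with an unadjusted limma p of 0.00221 and an adjusted p of 0.255. The values rest on 153 to 537 reads per library. Plagl1 was the single imprinted gene of the 38 whose groups did not overlap, and 0 were higher without overlap (1.78% of all).

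Asb4, which encodes an ankyrin repeat protein of hypothalamic neurons, had the next smallest p among genes with a lower mean. Its levels were 7.47, 5.82, 5.83, 4.23 and 2.96 RPKM in +/+ and 3.47, 2.76, 3.43 and 4.57 RPKM in Δ/D329A. The groups overlapped, and the log2 difference was -0.52 (SE 0.26, limma adjusted p = 0.358). The difference was -0.54 after median centring (SE 0.15, limma adjusted p = 0.141), with edgeR (adjusted p = 0.0608) and with DESeq2 (adjusted p = 0.0207), and over all alternatives the adjusted p lay between 0.0207 and 0.823, none under the threshold of 0.01. The summed markers of hypothalamic and thalamic neurons given above overlapped between genotypes. Of the 14 hypothalamic markers, 7 had a higher and 7 a lower mean in Δ/D329A, 0 were called, and the median log2 difference was -0.0051. The groups did not overlap for Sim1 alone, which was lower. The other 13 overlapped, with log2 differences from -1.06 (Pomc, SE 0.45) to 0.71 (Crh, SE 0.34). On the thalamic and habenular list, 7 rows were tested (Ntng1 has 2 rows), of which 6 had a higher mean and 1, Tac2, a lower one. The called row was Pou4f1, higher in Δ/D329A, with 0.0122 to 0.0738 RPKM in +/+ and 0.638 to 1.14 RPKM in Δ/D329A. The study names Pou4f1 among normally repressed genes that gained DNA methylation and expression in Δ/D329A, so here it may not mark these cells. Chrnb4, below the filter, was lower without overlap. The 6 cortical and striatal markers summed to 3.29 to 5.52 RPKM in +/+ and to 6.42 to 6.79 RPKM in Δ/D329A, without overlap, and 4 had a higher and 2 a lower mean, with 0 called. Their part in the levels of Plagl1 and Asb4 was not tested, and in bulk tissue fewer cells of a type and less RNA per cell cannot be told apart.

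The remaining genes with the smallest p and a lower mean were Ube3a, Mest and Kcnk9. Ube3a, the ubiquitin ligase lost in Angelman syndrome, had 19.3, 23.5, 21.5, 20.05 and 16.0 RPKM in +/+ and 17.3, 13.6, 16.2 and 18.7 RPKM in Δ/D329A. Its log2 difference was -0.28 (SE 0.15, limma adjusted p = 0.409), and the groups overlapped. Mest, a gene of the hydrolase family that marks mesoderm, had 9.74, 10.8, 10.96, 10.5 and 11.8 RPKM in +/+ and 10.7, 8.91, 9.62 and 8.70 RPKM in Δ/D329A, with overlap. The potassium channel gene Kcnk9 had 17.8, 11.4, 11.2, 9.18 and 8.05 RPKM in +/+ and 8.48, 9.67, 9.71 and 8.33 RPKM in Δ/D329A. Both had adjusted limma p values above 0.5 (Mest 0.536, Kcnk9 0.596).

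H19 and Igf2, neighbours under 1 control region, had a higher mean in Δ/D329A and varied widely between libraries. H19, a non-coding RNA of fetal tissue, was close to absent, with 1, 2, 2, 6 and 2 reads in +/+ and 26, 1, 12 and 5 reads in Δ/D329A. The log2 difference was 1.90 (SE 0.78, limma adjusted p = 0.355), and the groups overlapped. It was 0.30 with a pseudocount of 1 RPKM and 1.12 with 0.1 RPKM. Without Δ/D329A replicate 1 it was 1.31, and without Δ/D329A replicate 2 it was 2.71. Igf2, a fetal growth factor that stays on in the meninges and choroid plexus, had 1.94, 4.60, 1.79, 7.89 and 7.29 RPKM in +/+ and 8.92, 4.78, 10.9 and 4.05 RPKM in Δ/D329A. The 7 marker genes of meninges summed to 6.10, 15.4, 5.80, 21.4 and 16.9 RPKM in +/+ and to 24.0, 14.8, 26.7 and 8.47 RPKM in Δ/D329A. In +/+ and in Δ/D329A alike, the 2 libraries with the lowest Igf2 were the 2 with the lowest meningeal sum. The 6 choroid plexus markers summed to 4.50 to 5.84 RPKM in +/+ and 4.54 to 8.79 RPKM in Δ/D329A, and 3 had a higher and 3 a lower mean, with 0 called. Among them, Ttr, which carries thyroid hormone, was higher without overlap, with 0.367 to 1.53 RPKM in +/+ and 1.70 to 4.01 RPKM in Δ/D329A (log2 difference 1.82, SE 0.40, limma adjusted p = 0.187), and Kl was lower without overlap (-0.43, SE 0.19). The part of these cells in the levels of Igf2 and H19 was not tested.

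The remaining genes with the smallest p and a higher mean were Zrsr1, Magel2 and Mkrn3. Zrsr1, a retrogene of a splicing factor inside Commd1, had 9.34, 9.68, 7.15, 7.71 and 6.19 RPKM in +/+ and 10.2, 8.68, 9.55 and 11.7 RPKM in Δ/D329A. Magel2, a gene of the Prader-Willi region that acts in protein trafficking, had 6.25, 4.20, 4.20, 3.71 and 5.80 RPKM in +/+ and 5.03, 6.16, 6.76 and 6.46 RPKM in Δ/D329A. Both overlapped between genotypes, with log2 differences of 0.34 (SE 0.16) for Zrsr1 and 0.36 (SE 0.18) for Magel2. Mkrn3, a ubiquitin ligase gene that restrains puberty, was low, with 0.299, 0.251, 0.176, 0.101 and 0.0466 RPKM in +/+ and 0.161, 0.299, 0.443 and 0.212 RPKM in Δ/D329A. The groups overlapped, with a log2 difference of 0.85 (SE 0.52, limma adjusted p = 0.504). It was 0.44 without +/+ replicate 5, and over all alternatives it lay between 0.12 (pseudocount of 1 RPKM) and 1.11 (without +/+ replicate 1).

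In the Snrpn-Ube3a domain, the highest gene was Ndn, a MAGE protein of neurons, with 166, 128, 220, 144 and 71.6 RPKM in +/+ and 115, 80.4, 155 and 111 RPKM in Δ/D329A. Snrpn, a splicing protein, ranged from 77.8 to 147 RPKM and Snurf, read from the same transcript, from 57.2 to 166 RPKM, with overlap of the genotypes. Among the highest genes of the other domains, Peg3, a zinc finger protein, had 104, 97.3, 96.8, 79.3 and 66.4 RPKM in +/+ and 83.4, 73.2, 75.6 and 91.3 RPKM in Δ/D329A. The non-coding RNA Meg3 had 89.3, 48.2, 48.6, 62.7 and 91.9 RPKM in +/+ and 78.1, 76.4, 71.2 and 83.4 RPKM in Δ/D329A. The groups overlapped for each of these genes.

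Impact, a regulator of translation, had 160, 160, 157, 121 and 98.0 RPKM in +/+ and 132, 106, 131 and 136 RPKM in Δ/D329A. Nnat, a small membrane protein of neurons, had 153, 89.4, 117, 73.4 and 67.9 RPKM in +/+ and 99.7, 56.7, 115 and 83.1 RPKM in Δ/D329A. For Gnas, the stimulatory G protein subunit, the values were 69.7, 61.6, 62.1, 45.7 and 41.6 RPKM in +/+ and 68.6, 61.8, 63.8 and 74.3 RPKM in Δ/D329A. Again the genotypes overlapped, and the log2 differences lay between -0.16 for Nnat and 0.28 for Gnas.

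Rasgrf1, an exchange factor for Ras, had 79.6, 59.3, 40.3, 46.9 and 45.9 RPKM in +/+ and 67.8, 56.8, 58.3 and 64.8 RPKM in Δ/D329A. Peg10, a gene derived from a retrotransposon, had 29.2, 28.1, 28.9, 24.7 and 21.8 RPKM in +/+ and 27.9, 28.0, 28.0 and 30.8 RPKM in Δ/D329A. The adaptor gene Grb10 had 18.01, 15.4, 16.3, 12.4 and 10.5 RPKM in +/+ and 13.9, 11.3, 13.4 and 13.5 RPKM in Δ/D329A. None of the 3 separated the genotypes. Copg2, a coat protein of vesicles, ranged from 8.79 to 16.7 RPKM, the phosphatase gene Inpp5f from 9.27 to 14.7 RPKM and the receptor gene Igf2r from 3.79 to 7.88 RPKM over all 9 libraries.

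Genes of the Kcnq1 domain were low. Cdkn1c, an inhibitor of the cell cycle, had 1.44, 1.56, 1.39, 1.80 and 1.41 RPKM in +/+ and 1.24, 0.985, 2.61 and 1.77 RPKM in Δ/D329A, with a log2 difference of 0.03 (SE 0.26). Phlda2, which limits placental growth, had 1 read in all 9 libraries together. With it, Dio3, Peg12 and Klf14 were below the filter on low values, and Dio3, which inactivates thyroid hormone, had 12 of its reads in +/+ replicate 3. The sources differ on whether the RNA-seq libraries keep strand, and whether strand was used in counting is not given in the sources used here. Reads of overlapping genes may therefore be shared between Nnat and Blcap, Nespas and Gnas, Zrsr1 and Commd1, Nap1l5 and Herc3, Mest and Copg2, Airn and Igf2r, and Snurf and Snrpn.

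Factors that maintain imprints were also read from the same fit. Of 12 listed, 11 were tested and 0 were called. Zfp57 had 1.70 to 2.74 RPKM in +/+ and 1.96 to 2.46 RPKM in Δ/D329A, and Zfp445 had 15.2 to 18.3 RPKM in +/+ and 14.6 to 17.2 RPKM in Δ/D329A. A second list held further imprinted genes, of which 28 were tested and 0 called. At an unadjusted limma p under 0.05, 4 of these 28 had a higher and 2 a lower mean in Δ/D329A, against 822 and 538 of the 17839 genes (7.62% in both directions).

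At the starts used here, part of the promoters of the imprinted genes carried high H3K27me3 in +/+, and fewer carried high H3K4me3. A promoter was taken from 1500 bp before to 500 bp after the start given in the table, and a mark is given as mean RPM per 2000 bp tile. For H3K27me3, 14 of 42 promoters were in the highest 20% of all promoters of the table (33.3% against 20%). They include Grb10 (6.25 RPM ± 0.366, SD, n = 3), Klf14 (3.99 ± 0.705), Phlda2 (3.73 ± 0.268), Dio3 (3.64 ± 0.936) and Kcnk9 (3.502 ± 0.701). For H3K4me3, 5 of 42 were in the highest 20% (11.9%), namely Ube3a, Peg3, Sgce, Peg10 and Commd1, and for H3K36me3, 8 of 42 were (19%). Of the 42, 17 were in the highest 20% of none of the 3 marks (40.5% against 45.5% of all). No promoter was in the highest 20% of both H3K4me3 and H3K27me3, against 0.593% of all promoters. For Grb10, Igf2, Mest, Blcap and Usp29 the start given in the table had under 0.5 RPM of H3K4me3, and for these the start in the table differs from the main RefSeq start.

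**Figure D2:**
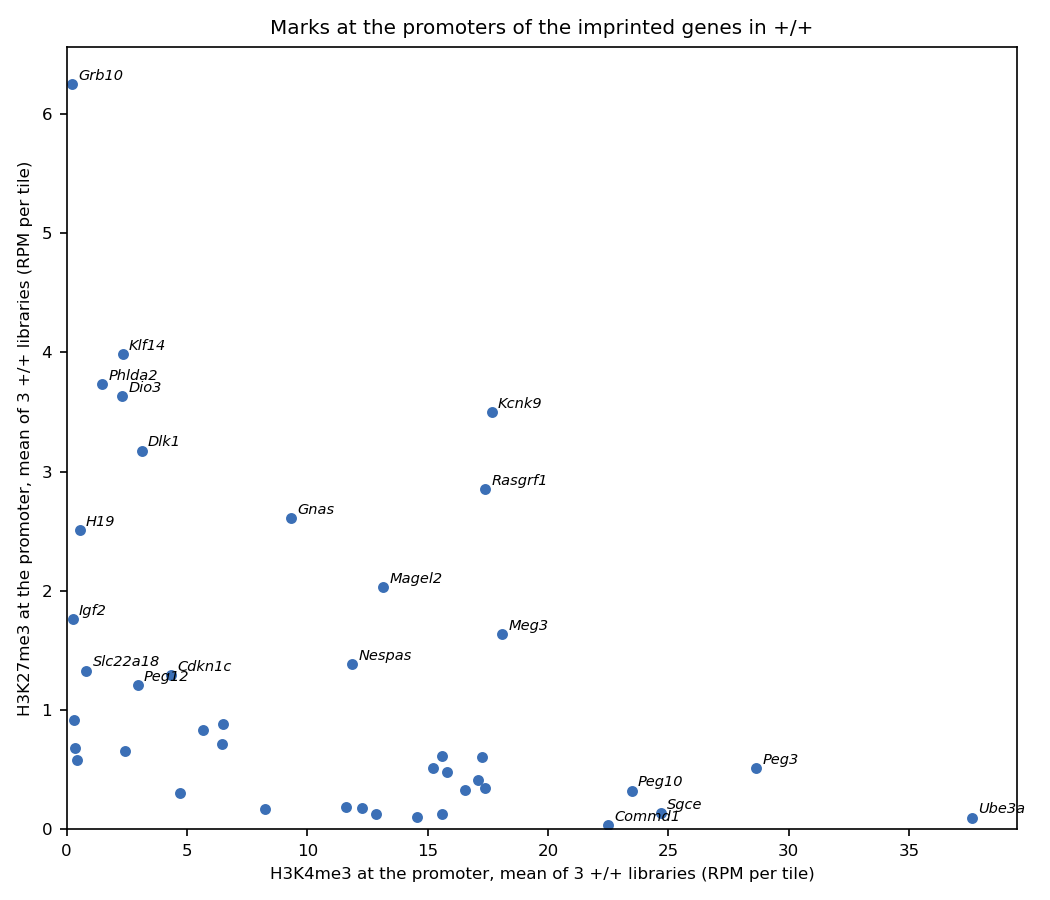
H3K4me3 (horizontal) and H3K27me3 (vertical) at the 42 promoters in +/+, each as the mean of 3 libraries in RPM per tile; genes above 20 RPM of H3K4me3 or above 1 RPM of H3K27me3 are named. Ube3a has the most H3K4me3 (37.6 RPM) and little H3K27me3 (0.0971 RPM), Grb10 has the most H3K27me3 (6.25 RPM) and little H3K4me3 (0.208 RPM), and Kcnk9 has 3.502 RPM of H3K27me3 with 17.7 RPM of H3K4me3.

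Gene bodies were taken from 500 bp after the start to the end. Of 42 bodies, 18 were in the highest 20% for H3K4me3 (42.9%), 13 for H3K27me3 (31%) and 9 for H3K36me3 (21.4%). Nespas, Peg12, Cdkn1c and Phlda2 were in the highest 20% of both H3K4me3 and H3K27me3 over bodies (9.52% against 2.55% of all). A body can hold further starts of its gene, as for Mest and Snrpn, so the promoter counts can miss H3K4me3 at those. The levels of H3K27me3 were highest at Dio3 (5.29 RPM), Phlda2 (5.10 RPM) and Igf2 (4.55 RPM). H3K36me3 was highest at Impact (2.55 RPM), Zrsr1 (2.48 RPM) and Nap1l5 (2.47 RPM). Across the 42 genes, H3K36me3 over bodies and expression in +/+ had a Spearman correlation of 0.558 (0.693 over all genes), and H3K27me3 over bodies one of -0.569 (-0.555). For H3K4me3 at promoters it was 0.329 among the imprinted genes and 0.714 over all genes. These are descriptions across genes, which are not independent replicates, of RNA and chromatin from different animals.

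H3K27me3 rose at the promoter of Asb4 in Δ/D329A, and this was the one call among the 42 genes for any mark at promoters or gene bodies. Over all 21599 promoters tested, limma called 228 at an adjusted p under 0.05 (1.06%), of which 180 were higher (0.833%), and among 39 imprinted genes tested it called 1. At Asb4 the values were 0.472, 0.811 and 0.868 RPM in +/+ and 2.05, 1.85 and 1.55 RPM in Δ/D329A. The groups did not overlap, and the log2 difference was 1.26 (SE 0.25, adjusted p = 0.00372). The call was lost without the filter on low values (adjusted p = 0.337, limma), with input subtracted (0.121) and without Δ/D329A replicate 1 (0.0530), with log2 differences of 1.26, 1.20 and 1.17. Over the alternatives tried, the difference at Asb4 lay between 0.94 and 1.57.

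The rise at Asb4 covered several tiles around its first start. In 14 of 41 tiles within about 20 kb, all Δ/D329A libraries lay above all +/+ libraries, and the reverse held in 0 tiles; over all tiles of the genome these shares were 4.02% and 6.29%. Neighbouring tiles overlap, and the window was centred on the called promoter, so the count describes how far the difference reached and is no further test of it. The tile centred at -1385.5 bp from the start had means of 0.545 RPM in +/+ and 1.74 RPM in Δ/D329A. The tile 7614.5 bp after it, near the second start shown above, had 4.16 RPM in +/+ and 3.49 RPM in Δ/D329A, with overlap. The promoter around the second start had 3.62, 2.97 and 3.17 RPM in +/+ and 2.96, 4.35 and 2.94 RPM in Δ/D329A. H3K4me3 around the first start was 6.55, 6.05 and 6.77 RPM in +/+ and 3.64, 5.80 and 5.20 RPM in Δ/D329A, without overlap (log2 difference -0.42, SE 0.24, limma adjusted p = 1). Around the second start, H3K4me3 was 3.67, 2.23 and 3.84 RPM in +/+ and 2.32, 1.38 and 1.32 RPM in Δ/D329A (log2 difference -0.92, SE 0.29, limma adjusted p = 0.116 over RefSeq starts).

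**Figure D3:**
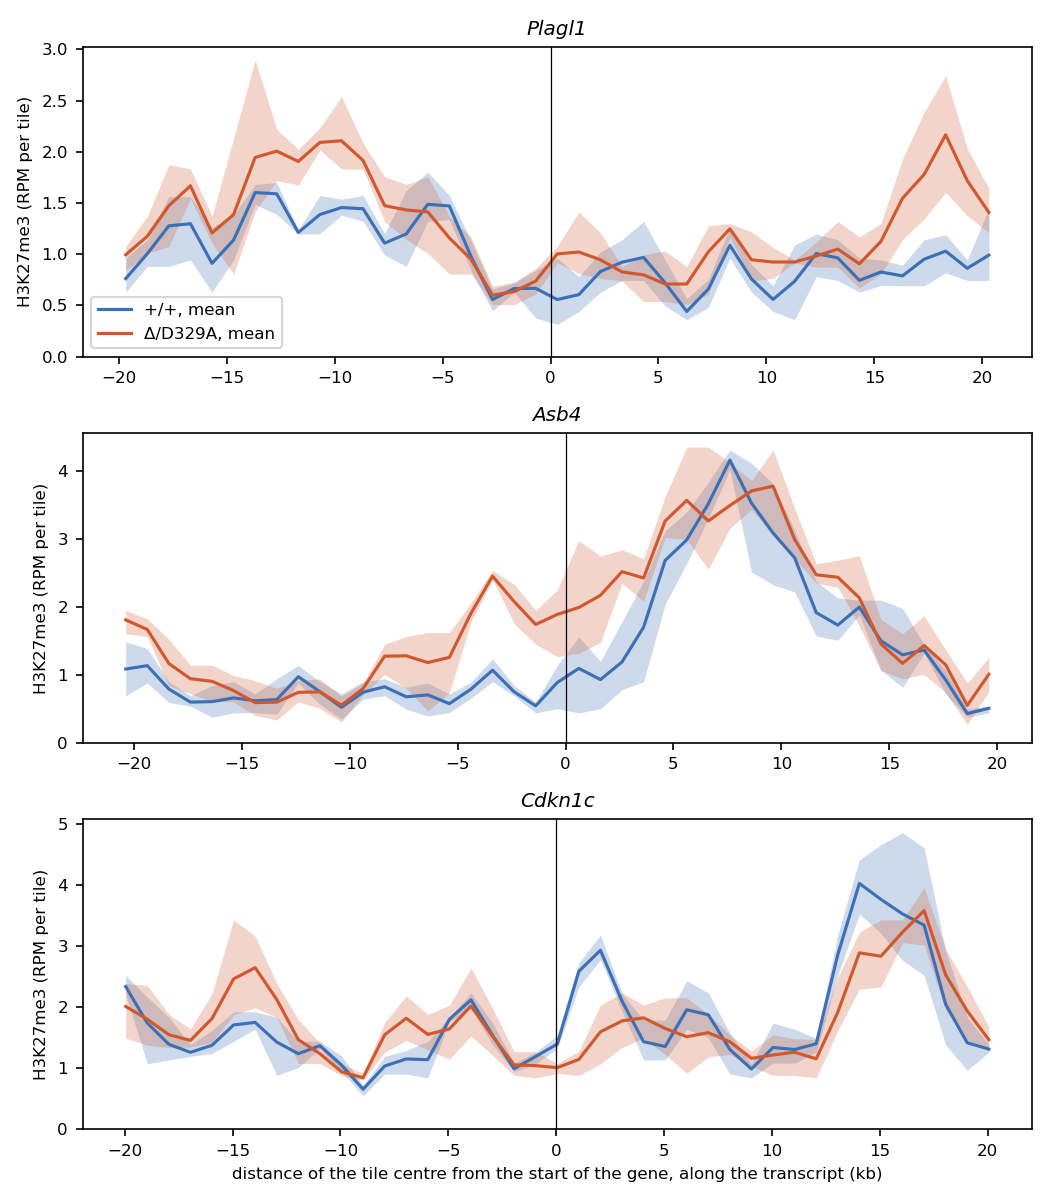
H3K27me3 in RPM per 2000 bp tile against the distance of the tile centre from the start of Plagl1, Asb4 and Cdkn1c, along the transcript, with the line as the mean and the band as the range of 3 libraries per genotype. Δ/D329A lies above +/+ on the upstream side of the start of Asb4, where the mean at -1385.5 bp is 1.74 RPM against 0.545 RPM, and below +/+ just after the start of Cdkn1c, where the mean at 1049.5 bp is 1.14 RPM against 2.59 RPM.

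Copg2, the neighbour of Mest, had the next smallest p for H3K27me3 at promoters. Its values were low, with 0.629, 0.480 and 0.322 RPM in +/+ and 0.101, 0.0764 and 0.305 RPM in Δ/D329A. The groups did not overlap, and the log2 difference was -1.21 (SE 0.37, limma adjusted p = 0.116). Without overlap, 2 of the 39 promoters were higher (7.21% of all) and 4 lower (7.44% of all). The median difference of the 39 was -0.01, as over all promoters.

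On the list of further imprinted genes, 0 of 29 promoters were called higher for H3K27me3 and 2 were called lower (0.222% of all promoters). These were Sfmbt2, a Polycomb protein, and Dlx5, a homeobox gene, which are named because they were called. Sfmbt2 had 5.88, 6.15 and 5.999 RPM in +/+ and 1.85, 3.90 and 2.79 RPM in Δ/D329A (log2 difference -1.11, SE 0.18, limma adjusted p = 0.000314). Dlx5 had 5.003, 4.59 and 4.29 RPM in +/+ and 2.59, 3.19 and 1.98 RPM in Δ/D329A (log2 difference -0.84, SE 0.17, limma adjusted p = 0.00511). Neither overlapped between genotypes. Dlx5 was also the 1 promoter of 31 on this list called for H3K4me3, which was higher (0.200% of all promoters), from a mean of 7.10 RPM in +/+ to 12.1 RPM in Δ/D329A (log2 difference 0.80, SE 0.22, limma adjusted p = 0.0300). No gene body on this list was called for any mark.

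Over gene bodies, limma called 1 of 19197 regions for H3K27me3 (0.00521%) and 0 of 41 imprinted genes, while 2057 regions (10.7%) had an unadjusted p under 0.05. Cdkn1c had the smallest p, with 2.58, 2.94 and 2.75 RPM in +/+ and 1.48, 0.974 and 1.65 RPM in Δ/D329A. All 3 Δ/D329A libraries lay below the +/+ libraries, and the log2 difference was -0.99 (SE 0.18, limma adjusted p = 0.219). H3K36me3 over the same body was 0.109, 0.0474 and 0.105 RPM in +/+ and 0.146, 0.295 and 0.420 RPM in Δ/D329A (log2 difference 0.9997, SE 0.32, limma adjusted p = 0.260). The body of Cdkn1c is short, and these values rest on 2 tiles. In the 41 tiles around its start, H3K27me3 was higher without overlap in 4 and lower in 5 (4.02% and 6.29% over all tiles). H3K36me3 was higher without overlap in 12 and lower in 0, and input was higher in 6 and lower in 1. No share over all tiles was computed for H3K36me3 or input, so their counts are a description only. With input subtracted, the log2 difference of H3K27me3 over the body was -1.11 (SE 0.19, limma adjusted p = 0.304).

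Plagl1, lower in expression, had more H3K27me3 over its body, with 0.826, 0.835 and 0.814 RPM in +/+ and 1.26, 1.08 and 1.22 RPM in Δ/D329A. The groups did not overlap, and the log2 difference was 0.47 (SE 0.11, limma adjusted p = 0.279). Over the whole gene, input was 0.834 to 0.919 RPM in +/+ and 0.888 to 0.941 RPM in Δ/D329A. At Plagl1 in +/+, H3K27me3 was thus not above input. In 12 of 41 tiles around its start, all Δ/D329A libraries were above all +/+ libraries, and in 0 below (4.02% and 6.29% over all tiles). Neighbouring tiles overlap and reach into the body for which Plagl1 was chosen, so the count is no further test of the difference. Input at the same tiles was higher without overlap in 4 and lower in 0, but no share over all tiles was computed for input. With input subtracted, the log2 difference over the body was 0.43 (SE 0.11, limma adjusted p = 0.414). At its promoter the values overlapped, with 0.346, 0.871 and 0.620 RPM in +/+ and 0.908, 0.764 and 0.939 RPM in Δ/D329A. The bodies of Asb4, Sgce and Mest were also higher without overlap, so that 4 of 41 were higher (5.87% of all) and 4 lower (12.2% of all). Sgce, a sarcoglycan, had 0.645, 0.623 and 0.630 RPM in +/+ and 0.816, 0.827 and 0.790 RPM in Δ/D329A.

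**Figure D4:**
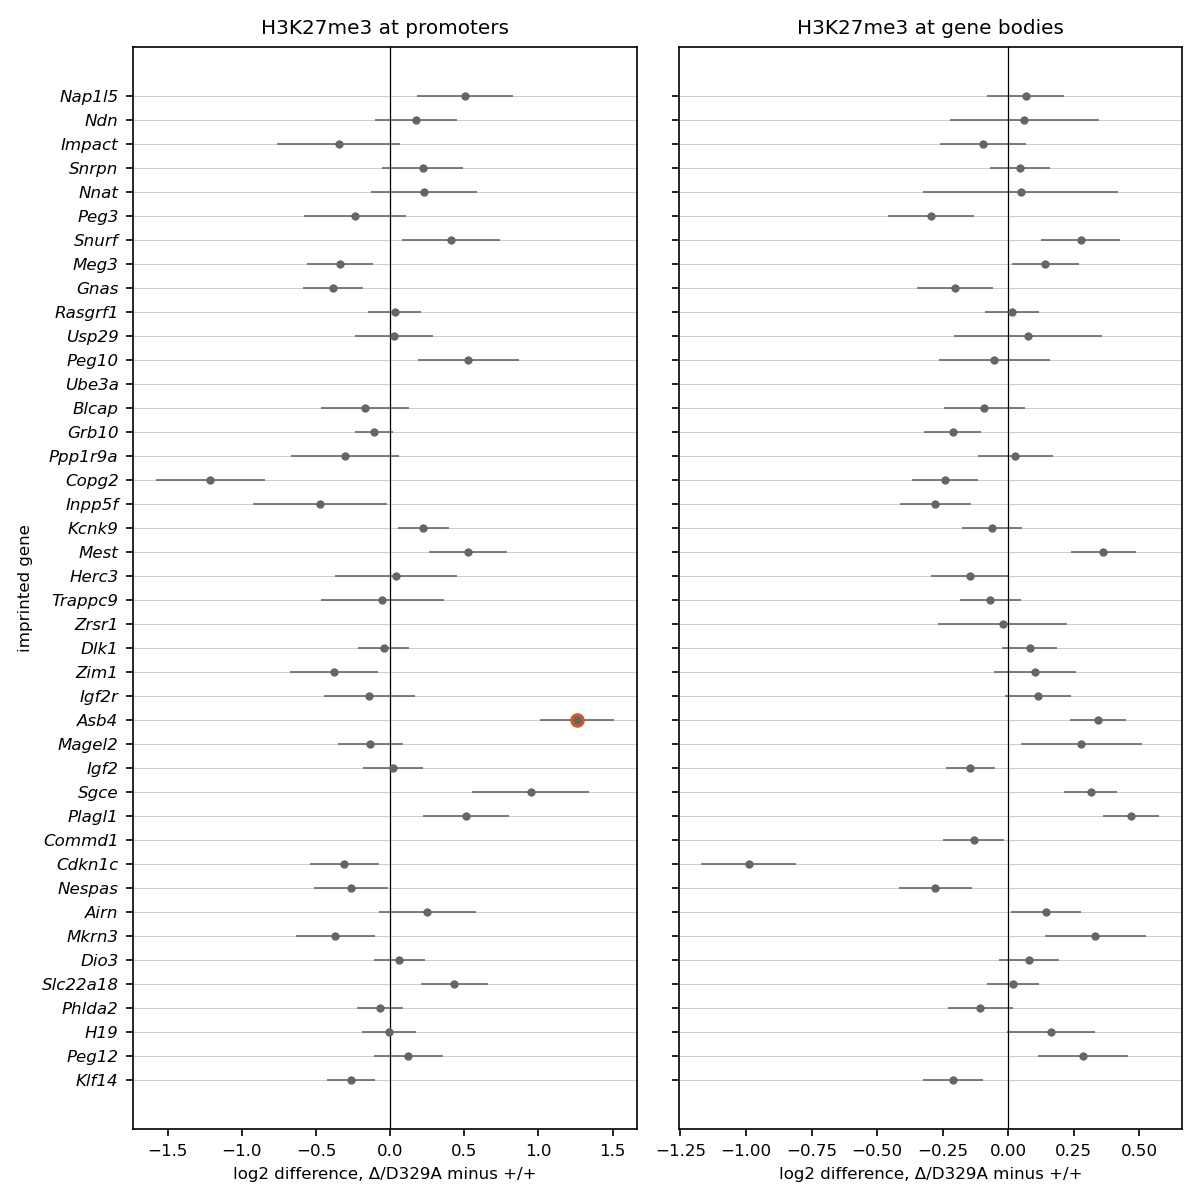
Log2 difference of H3K27me3 (Δ/D329A minus +/+) at promoters (left) and over gene bodies (right) for each imprinted gene tested, with the SE of the limma fit (n = 3 per genotype) as bars and the called gene as a large orange point. Asb4 stands out at promoters (1.26) and Copg2 on the other side (-1.21), and over bodies Cdkn1c is lowest (-0.99) and Plagl1 highest (0.47).

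H3K4me3 at promoters was called at 261 of 23987 promoters (1.09%) and at 0 of 42 imprinted genes. Klf14, a transcription factor gene, had the smallest p, with 3.10, 1.76 and 2.13 RPM in +/+ and 1.35, 1.22 and 0.613 RPM in Δ/D329A. The groups did not overlap (log2 difference -1.09, SE 0.32, limma adjusted p = 0.0610). Phlda2 had 1.90, 1.33 and 1.22 RPM in +/+ and 0.972, 0.71 and 0.678 RPM in Δ/D329A, also without overlap (log2 difference -0.83, SE 0.36, limma adjusted p = 0.694). Kcnk9, called under some alternatives, had 18.4, 15.7 and 18.8 RPM in +/+ and 8.72, 18.7 and 12.4 RPM in Δ/D329A, with overlap (log2 difference -0.48, limma adjusted p = 0.740). Without overlap, 4 of the 42 promoters were lower (4.39% of all) and 0 higher (1.83% of all). Klf14 and Phlda2 had H3K27me3 in the highest 20% in +/+ and hardly any reads in RNA-seq. The mean was lower in Δ/D329A at 34 of 42 promoters (81% against 70.5% of all), at 22 after median centring (52.4% against 27.4%), which moved the median of all promoters from -0.07 to 0.08, and at 21 without Δ/D329A replicate 1 (50% against 40.6%).

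**Figure D5:**
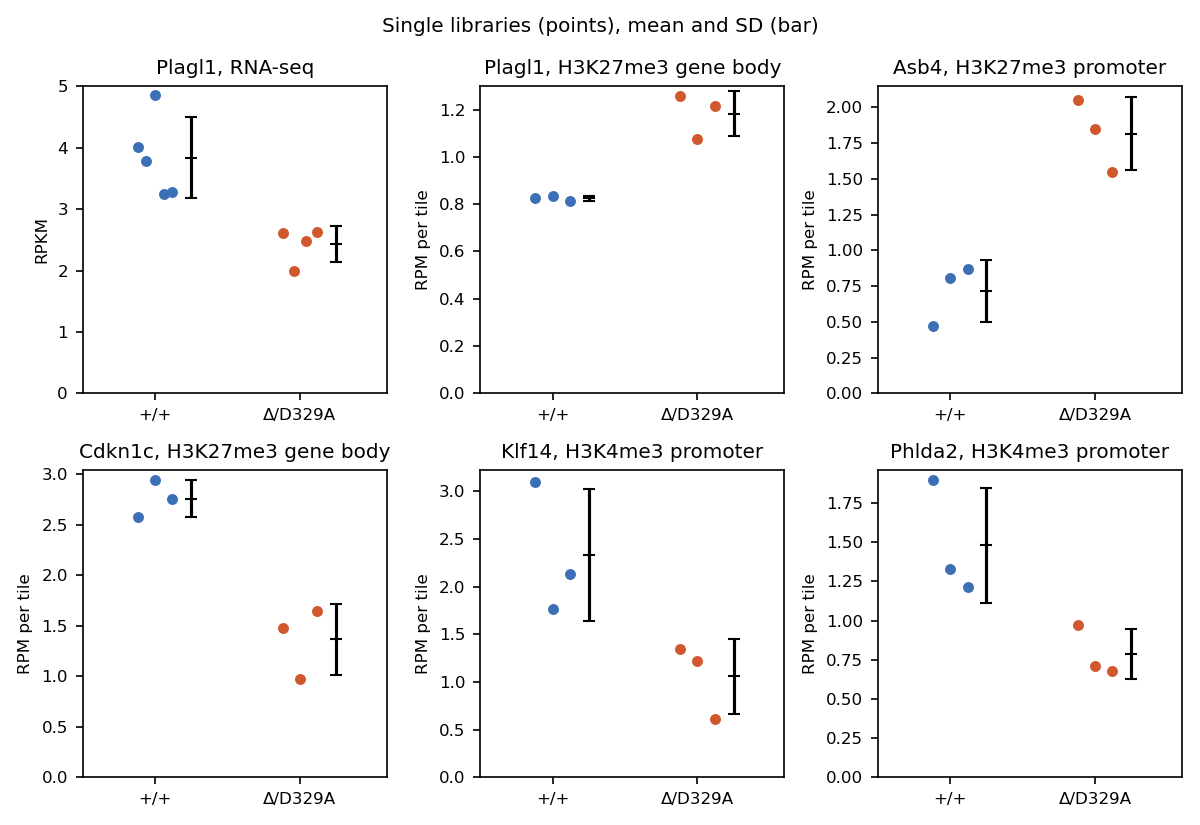
Values of single libraries for Plagl1, Asb4, Cdkn1c, Klf14 and Phlda2, in RPKM for RNA-seq (5 +/+, 4 Δ/D329A) and in RPM per tile for marks (3 and 3), with the mean and SD as a bar beside the points. In each of the 6 panels the genotypes do not overlap; H3K27me3 at the promoter of Asb4 runs from 0.472 to 0.868 RPM in +/+ and from 1.55 to 2.05 RPM in Δ/D329A.

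Over gene bodies, H3K4me3 was called at 33 of 22332 regions (0.148%) and at 0 of 42 imprinted genes. Phlda2 had 3.98, 2.99 and 2.63 RPM in +/+ and 2.26, 1.74 and 1.42 RPM in Δ/D329A (log2 difference -0.80, SE 0.19, limma adjusted p = 0.246). Mkrn3 had 4.55, 4.39 and 4.63 RPM in +/+ and 3.20, 3.94 and 2.97 RPM in Δ/D329A (log2 difference -0.42, SE 0.13, limma adjusted p = 0.603). Neither overlapped. Klf14 and Dlk1, a membrane protein related to Notch ligands, were called with Phlda2 under 1 alternative. Klf14 had 1.08, 0.798 and 0.755 RPM in +/+ and 0.847, 0.513 and 0.226 RPM in Δ/D329A, and Dlk1 had 2.57, 1.64 and 3.51 RPM in +/+ and 1.99, 0.820 and 1.76 RPM in Δ/D329A, both with overlap. Over the list, 3 of the 42 bodies were lower without overlap (4.69% of all) and 0 higher (2.18% of all). Over the 42 bodies the mean was lower in Δ/D329A at 36 (85.7% against 57.4% of all), at 36 after median centring (85.7% against 51.3%) and at 29 without Δ/D329A replicate 1, the library with the high background (69% against 61.4%).

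For H3K36me3 at promoters, limma called 11 of 24229 (0.0454%) and 0 of 41 imprinted genes. Grb10 had the smallest p, with 0.263, 0.284 and 0.288 RPM in +/+ and 0.633, 0.737 and 0.708 RPM in Δ/D329A, without overlap (log2 difference 1.07, SE 0.29, limma adjusted p = 0.208). Igf2 had 0.219, 0.142 and 0.157 RPM in +/+ and 0.365, 0.295 and 0.708 RPM in Δ/D329A (log2 difference 0.97, SE 0.34, limma adjusted p = 0.449). Without overlap, 5 of the 41 promoters were higher (9.28% of all) and 1 lower (2.74% of all). The levels at Grb10 and Igf2 were below those of input at the same promoters in +/+ (1.07 RPM at Grb10 and 1.02 RPM at Igf2).

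Over gene bodies, limma called 0 of 22958 regions for H3K36me3, with 3541 (15.4%) at an unadjusted p under 0.05, while edgeR called 162, and 0 imprinted genes were called by either. The smallest p was at Sgce, with 1.13, 1.11 and 1.07 RPM in +/+ and 0.913, 0.957 and 0.901 RPM in Δ/D329A (log2 difference -0.23, SE 0.06, limma adjusted p = 0.242). Ube3a followed, with 1.13, 1.16 and 1.02 RPM in +/+ and 0.912, 0.910 and 0.964 RPM in Δ/D329A (log2 difference -0.22, SE 0.07, limma adjusted p = 0.256). Without overlap, 10 of 42 bodies were lower (15.3% of all) and 3 higher (7.13% of all).

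Marks were also averaged from the first to the last base of the imprinted genes of each of the 18 domains. The exact two-sided permutation test of 3 against 3 libraries cannot give a p under 0.1, so no domain could pass. The genotypes did not overlap in 2 domains for H3K4me3, 5 for H3K27me3 and 7 for H3K36me3, and in 4 for input. For comparison, the shares of gene bodies without overlap, higher and lower, were 2.18% and 4.69% for H3K4me3, 5.87% and 12.2% for H3K27me3, and 7.13% and 15.3% for H3K36me3. No such share was computed for regions as long as the domains, so the counts are given as a description. The ratio of Δ/D329A to +/+ for H3K27me3 ran from 0.738 at Inpp5f to 1.44 at Plagl1. At Inpp5f, H3K27me3 was far below input in both genotypes. Its means were 0.205 RPM in +/+ and 0.151 RPM in Δ/D329A, with 0.893 and 0.896 RPM of input. In the Peg10 domain, which holds Asb4 and Sgce, H3K27me3 was 0.623, 0.635 and 0.631 RPM in +/+ and 0.679, 0.762 and 0.738 RPM in Δ/D329A (ratio 1.15). Input over the Peg10 domain was above H3K27me3 in both genotypes, with 0.878 to 0.887 RPM in +/+ and 0.870 to 0.893 RPM in Δ/D329A. For H3K36me3 the mean was lower in Δ/D329A in 13 of the 18 domains, and the lowest ratio was at Nap1l5 (0.873). The highest ratio was in the Kcnq1 domain (1.31), with 0.272, 0.295 and 0.272 RPM in +/+ and 0.344, 0.350 and 0.402 RPM in Δ/D329A. Input over this domain was higher than H3K36me3, and was also higher in Δ/D329A without overlap, with 0.860 to 0.892 RPM in +/+ and 0.899 to 1.05 RPM in Δ/D329A (ratio 1.10).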

How the data were processed

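The members and lists were chosen with earlier results of these data known. Per the study's methods, the authors trimmed reads with Trim Galore, mapped them to GRCm38 with HISAT2 (RNA-seq) and Bowtie (ChIP-seq) and quantified them in SeqMonk. The submitters' processing notes name Trim Galore 0.4.3, HISAT2 2.0.5 and Bowtie2 2.3.2, while the methods give other versions and Bowtie in place of Bowtie2; which were used for these files was not settled. The labels name a kit that is not described as directional, while a figure legend of the study calls the RNA-seq kit strand-specific. They deposited log2 RPKM per gene, scaled to all mapped reads, with genes without reads at a floor of 0.9 reads, and a ChIP-seq signal in RPM over tiles of 2000 bp every 1000 bp, without input subtracted. Whole reads were recovered for 100% of genes (within 0.02 reads) and of tile values (within 0.01). The uniquely mapped reads per ChIP-seq library of a mark ranged from 12676361 to 26178088. The bisulfite libraries were not analysed here.

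Expression was tested in R 4.3.3 by limma 3.58.1 with a trended variance. Genes needed 0.1 RPKM or more in 4 or more libraries, and the 13 mitochondrial genes were left out. Calls are at a Benjamini-Hochberg adjusted p under 0.01. The value of a mark in a region is the mean of all tiles with their centre inside it, and limma was run on log2(RPM + 0.1) for regions with a mean of at least 0.1 RPM, at an adjusted p under 0.05. A fold change on this scale understates changes of low values. Tests were two-sided and adjusted over all features. edgeR 4.0.16 and DESeq2 1.42.0 on recovered reads, other scalings, filters, pseudocounts, input subtraction and leaving out each library were alternatives. The p-values measure the spread between these libraries. Promoters around RefSeq starts and the counts of domains and of the highest 20% without single libraries were added after seeing the data. The fits were tested on simulated data. At 1 log2 unit, limma on RPKM with the deposited scaling recovered none of the changed genes, while on the same simulated reads median centring recovered most of them. A first version of this test had scaled to reads on genes and so left out the shift between libraries; it was corrected to the scaling of the deposited values. The main test was kept as chosen.

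Values per library are given for members called in any comparison, for the 5 members with the smallest unadjusted p in each direction in RNA-seq, for the 2 with the smallest in each mark and region, and for the highest member of each domain, of which 3 are given as ranges. Sgce (H3K27me3), Cdkn1c (H3K36me3), the second start of Asb4, the marker genes named and the called further imprinted genes (Sfmbt2, Dlx5) were added after their values were seen. So were the further imprinted genes without overlap in RNA-seq (Sfmbt2, Cdh15 and Pon2).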

Additional observations from a re-analysis of the deposited data

Results flagged for a closer look

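Over the 42 imprinted genes in both genotypes, 84 groups of RNA-seq libraries were checked for a library that stands apart from the rest of its group, and 2 were found, while chance flags about 1 in 20. Peg10 in Δ/D329A replicate 4 had a log2 RPKM of 4.946 (30.8 RPKM), while the remaining Δ/D329A libraries lay between 4.803 and 4.808. Impact in Δ/D329A replicate 2 had a log2 RPKM of 6.733 (106 RPKM), while the remaining ones lay between 7.034 and 7.086.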

How the results depend on the processing

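In RNA-seq, edgeR and DESeq2 on recovered reads each called 1 imprinted gene, Plagl1, against 0 with limma, and called 77 and 251 genes in all against 19. Median centring called 34 and quantile normalization 32 genes in all and 0 imprinted genes. For H3K4me3 at promoters, 1 imprinted gene was called with a pseudocount of 0.05, with a mean of at least 0.5 RPM, with input subtracted and with the replicate block (Klf14 in each), and 1 with the mitochondrial coverage block (Kcnk9). Leaving out single libraries gave 0 to 2, namely 1 without Δ/D329A replicate 1 (Klf14) and 2 without Δ/D329A replicate 2 (Klf14 and Kcnk9). For H3K27me3 at promoters, 0 were called without the filter and with input subtracted, and 0 to 1 when single libraries were left out, with 0 only without Δ/D329A replicate 1. For H3K4me3 over gene bodies, the replicate block called 3 (Klf14, Phlda2 and Dlk1). The replicate block changed no call of an imprinted gene in the other comparisons. Same-numbered libraries did not all correlate above 0.1 (0.137, -0.0512, -0.0477 and -0.0543 in RNA-seq), so that the numbers were not taken as pairs. The mitochondrial block could not be fitted for H3K36me3, since 1 set held 1 genotype. Domains without overlap numbered 2 to 5 for H3K4me3 (5 without +/+ replicate 2 or Δ/D329A replicate 3) and 5 to 10 for H3K27me3 (10 without Δ/D329A replicate 2) when single libraries were left out. Leaving out a library can only keep or raise such a count, so these ranges do not measure how stable it is. Calls over all features moved more. For H3K4me3 at promoters they went from 261 to 0 without the filter, 88 with median centring, 70 with quantile normalization, 149 with input subtracted, 78 with edgeR, 525 with the mitochondrial block and 123 to 548 without single libraries (548 without Δ/D329A replicate 2). For H3K27me3 at promoters they went from 228 to 0 without the filter, 38 with input subtracted, 391 with the replicate block and 78 to 455 without single libraries (455 without Δ/D329A replicate 2, 78 without Δ/D329A replicate 3). For H3K36me3 at promoters they went from 11 to between 0 and 29. Over gene bodies they went from 33 to between 0 and 526 (526 with the replicate block) for H3K4me3, from 1 to between 0 and 39 (39 with edgeR) for H3K27me3, and from 0 to 162 with edgeR for H3K36me3. In RNA-seq they went from 19 to 11 at 0.5 RPKM or more and to 11 without Δ/D329A replicate 4. Of 672 alternatives of single differences, 656 kept the direction. The others were all small differences in RNA-seq. Inpp5f turned to -0.0098 with median centring, -0.015 with quantile normalization, -0.011 with edgeR, -0.0092 with DESeq2 and -0.098 with the replicate block. Without single libraries, Inpp5f lay between -0.098 and 0.092, Cdkn1c between -0.23 and 0.24, Copg2 between -0.20 and 0.032 and Nnat between -0.30 and 0.042. The causes were not tested.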
